A study of Oryza sativa Japonica Group with 21 samples.

Results

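The Aux/IAA and ARF gene families of rice were followed through 5 early stages of stamen development and in 2 leaf samples. Members were the genes whose symbol or synonym in the gene annotation is IAA with a number up to 31, or ARF (auxin response factor) with a number up to 25. The annotation listed 51 of them, 28 Aux/IAA and 23 ARF genes. A probe set assigned to no other gene was found for 26 Aux/IAA and 17 ARF genes, so 43 members of the 17905 genes measured in this way are described. IAA11, IAA29, ARF5, ARF6, ARF8, ARF19, ARF21 and ARF25 had no such probe set and were not analysed here. Each gene is represented by 1 probe set, the one with the highest mean over the 21 arrays, and 9 members had more than 1 to choose from. In 8 members the annotation gives a second number (ARF12 is also listed as ARF8, and ARF18 as ARF10). Each of these is called by the number left after those of all singly numbered genes were taken.

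All samples came from Oryza sativa japonica, cultivar Zhonghua 15, with no mutant or treated plants. Each of 7 groups had 3 biological replicates, with 1 Affymetrix rice array per replicate. The stamen groups were stages 2, 3, 4, 5 and 6, taken from spikelets by microdissection, with sections of the other part of each panicle used for staging. The leaf groups were the third leaf just after it had expanded and the primordium of the third leaf, which was cut out of embryos from seeds soaked for 2 to 3 days. Leaf was the authors' control organ, being homologous to the stamen. Per the labels, plants grew in a chamber (30 ± 2 °C, 11 h light, 13 h dark) or in a field, without a statement of which sample came from where, and plant age is not given. Each array used 50 to 300 ng of total RNA, which went through 2 rounds of amplification.

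Aux/IAA proteins are repressors of auxin signalling. They bind ARF transcription factors at the promoters of auxin-responsive genes and recruit TOPLESS-type corepressors, and auxin brings them to TIR1/AFB receptor complexes that mark them for destruction. Many Aux/IAA genes are themselves induced by auxin, and several ARF transcripts are cut by microRNAs or by trans-acting small RNAs. Auxin made and moved within the flower is known to be required for stamen development in Arabidopsis.

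The stamen and expanded leaf groups carried the markers of their labels. Leaf primordium was high in desiccation markers and low in markers of dividing cells. All 7 stamen identity genes measured (MADS-box genes of the B, C and E classes) were higher in stamens than in either leaf sample. The 3 carpel and ovule markers were not called, although DL was lower in stamens than in leaf primordium by 0.61 (adjusted p = 0.000823), and their summed level (log2 of the sum of the linear values) had a median of 8.34 in stamens, 8.14 in expanded leaf and 8.72 in leaf primordium. The 5 photosynthesis markers were all lower in stamens (summed level 9.58 to 11.69) than in expanded leaf (15.48 to 16.43), and their level in leaf primordium was 9.33 to 9.47. Embryo and seed desiccation markers stood at 9.78 to 13.70 in stamens, 8.16 to 12.88 in expanded leaf and 15.66 to 15.72 in leaf primordium, and 4 of 5 were lower in stamens than in the primordium. The 4 markers of dividing cells were higher in stamens (12.44 to 13.87) than in expanded leaf (6.50 to 7.05) or leaf primordium (6.98 to 7.42). Expanded leaf replicate 3 stood apart, with a desiccation marker level of 12.88 where the other arrays of that group had 8.83 and 8.16. Its summed stamen identity level was 10.90, against 9.29 and 9.07, and MADS58, a C-class stamen identity gene, read 10.04 there, against 5.76 and 6.29, and had a median of 10.78 in stamens. The part of that array's markers in the expanded leaf results was not tested, and the counts without it are given with those results. The 3' to 5' difference, the mean log2 difference between the 3' and 5' control probe sets of actin and GAPDH and a measure of RNA integrity, was 3.37 on that array and 3.19 to 3.41 at stage 2, against 1.27 to 2.69 on all other arrays. The other expanded leaf arrays varied too. Array weights, which are smaller for more variable arrays, were 0.39, 0.20 and 0.19 for its replicates 1, 2 and 3. Against expanded leaf, the lowest counts of called members came without replicate 1 (11 Aux/IAA genes) and without replicate 2 (7 ARF genes).

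Values below are log2 levels per probe set, as the authors normalised them, and levels of different genes were not compared. A difference is given as log2 with its standard error (SE) from limma, and a gene was called higher or lower where the adjusted p was below 0.05 and the difference was 2-fold or more. All 43 members were tested, since no filter on low values was applied. Overlap between groups was not counted over all genes. The stamen group in a leaf comparison is the mean of the 5 stage means (15 arrays). The comparisons share arrays (the same stamens stand against both leaf samples), so their results are given side by side and are not independent of each other. Since these are whole organs, a lower level may come from fewer cells of a type or from less RNA per cell, and the arrays cannot tell these apart.

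Among the 26 Aux/IAA genes the highest of the 7 group means lay in a stamen stage for 9 (34.6%), in expanded leaf for 12 (46.2%) and in leaf primordium for 5 (19.2%). Among the 17 ARF genes it lay in a stamen stage for 12 (70.6%), of which 8 were highest at stage 6, in expanded leaf for 3 (17.6%) and in leaf primordium for 2 (11.8%). Over all 17905 genes the shares were 47.9%, 29.6% and 22.6%, with 5 of the 7 groups being stamen stages. These counts describe the means and were not tested. The spread between a gene's highest and lowest group mean had a median of 2.06 in the Aux/IAA family (range 0.33 to 6.01) and 2.14 in the ARF family (0.30 to 3.59). Members with a mean below the median of all probe sets (5.91) were IAA8, IAA12, IAA14, IAA16, IAA20, IAA25, IAA31, ARF10 and ARF13, and their small differences rest on dim signals.

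**Figure D1:**
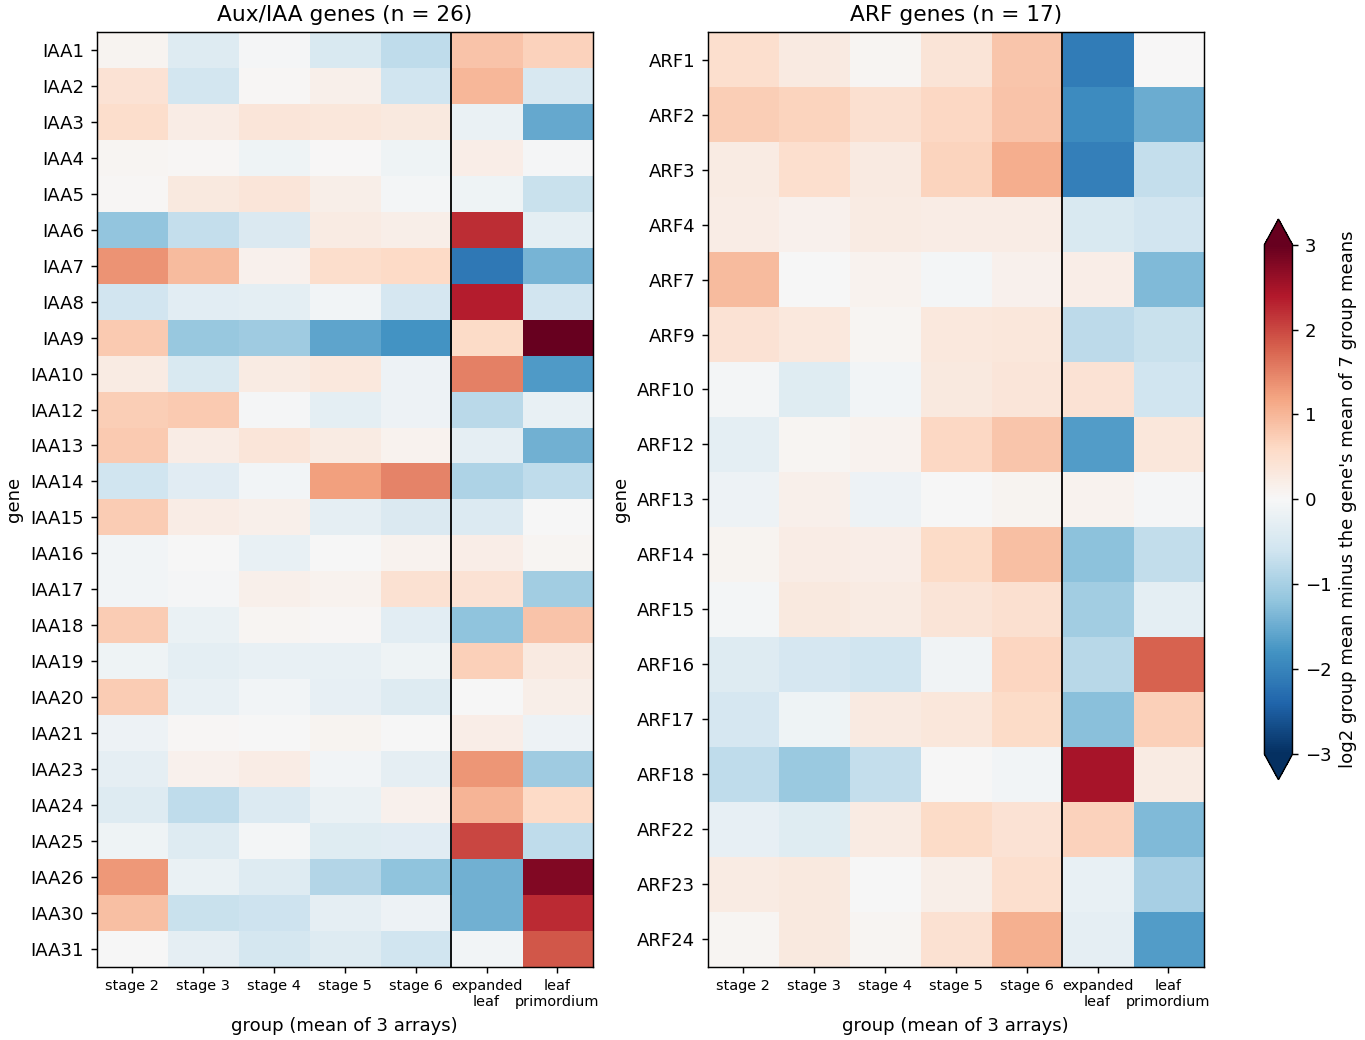
Mean log2 level of each gene in the 7 groups (mean of 3 arrays), minus the gene's own mean over the groups, with Aux/IAA genes on the left and ARF genes on the right. Stamen stages stand left of the black line. IAA9, IAA26 and IAA30 are highest in leaf primordium and, among the stamen stages, at stage 2, and IAA10 and IAA8 are highest in expanded leaf.

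Between stamens and leaf primordium, Aux/IAA genes differed in both directions, and the largest differences were falls in IAA9, IAA26, IAA30 and IAA31. Of the 26 members, 7 were called higher in stamens, 5 lower, and 14 showed no call. That is 26.9% higher and 19.2% lower, against 15.1% higher and 12.2% lower among all genes with 1 probe set each (7.59% and 6.71% of all 57258 probe sets). The members' median difference was 0.11, and that of all genes was 0.04.

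IAA9, a repressor whose overexpression in Arabidopsis altered root gravitropism, differed most (gene 4331061). It lay between 4.75 and 7.73 on the stamen arrays, with a median of 5.30, against 10.77, 10.98 and 10.88 in leaf primordium. All 15 stamen arrays were below all leaf primordium arrays, by 5.18 on average (SE 0.27, adjusted p = 7.67e-11), a 36.2-fold difference. IAA26 ranged from 5.14 to 8.09 in stamens (median 5.85) and read 9.32, 9.23 and 9.30 in leaf primordium. The groups did not overlap, and the difference was -3.04 (SE 0.28, adjusted p = 1.28e-07).

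IAA30 and IAA31 are neighbouring genes, and both were lower in stamens. IAA30 lay at 6.10 to 8.54 (median 6.93) in stamens and at 9.09, 9.36 and 9.79 in leaf primordium. It was lower by 2.41 on average (SE 0.25, adjusted p = 6.08e-07), without overlap. IAA31 lay at 3.94 to 5.14 (median 4.21) in stamens, against 6.65, 6.82 and 6.21 in leaf primordium. For IAA31 the difference was -2.21 (SE 0.23, adjusted p = 5.3e-07), but its second probe set gave -0.04 and was not called (adjusted p = 0.82). The fifth gene called lower, IAA1, was at the threshold (-1.003, adjusted p = 8.76e-05), overlapped between the groups and lost its call without any 1 of 10 arrays. Its second probe set gave -0.17 and, against expanded leaf, -0.34, both not called.

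The Aux/IAA genes higher in stamens had smaller differences. IAA7 had a stamen median of 8.85 (lowest 8.0004, highest 9.99), against 6.89, 6.93 and 6.48 in leaf primordium. Its difference was 2.11 (SE 0.37, adjusted p = 0.000205). IAA3 followed with 1.88 (adjusted p = 1.48e-06), although its second and much dimmer probe set gave -0.23 and was not called. IAA13, whose mutant form blocks lateral root initiation in rice, was higher by 1.78 (SE 0.20, adjusted p = 1.24e-06), with 8.29 to 9.54 in stamens and 6.76, 6.71 and 7.08 in leaf primordium. IAA10, a target of a viral protein in rice, was higher by 1.75 (adjusted p = 6.76e-09) and IAA17 by 1.17 (adjusted p = 2.13e-05). The IAA17 probe set is of a kind that may also detect transcripts of related genes. In these 5 genes no stamen array overlapped with a leaf primordium array, nor in IAA5 (0.83) and IAA19 (-0.47), which were not called. IAA14 (1.10) overlapped, since only its later stages were high, and IAA23 (1.02), which maintains the root quiescent centre in rice, lost its call without any 1 of 7 arrays and under 5 other settings. Its other probe sets gave 0.59 and -0.04, both not called.

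**Figure D2:**
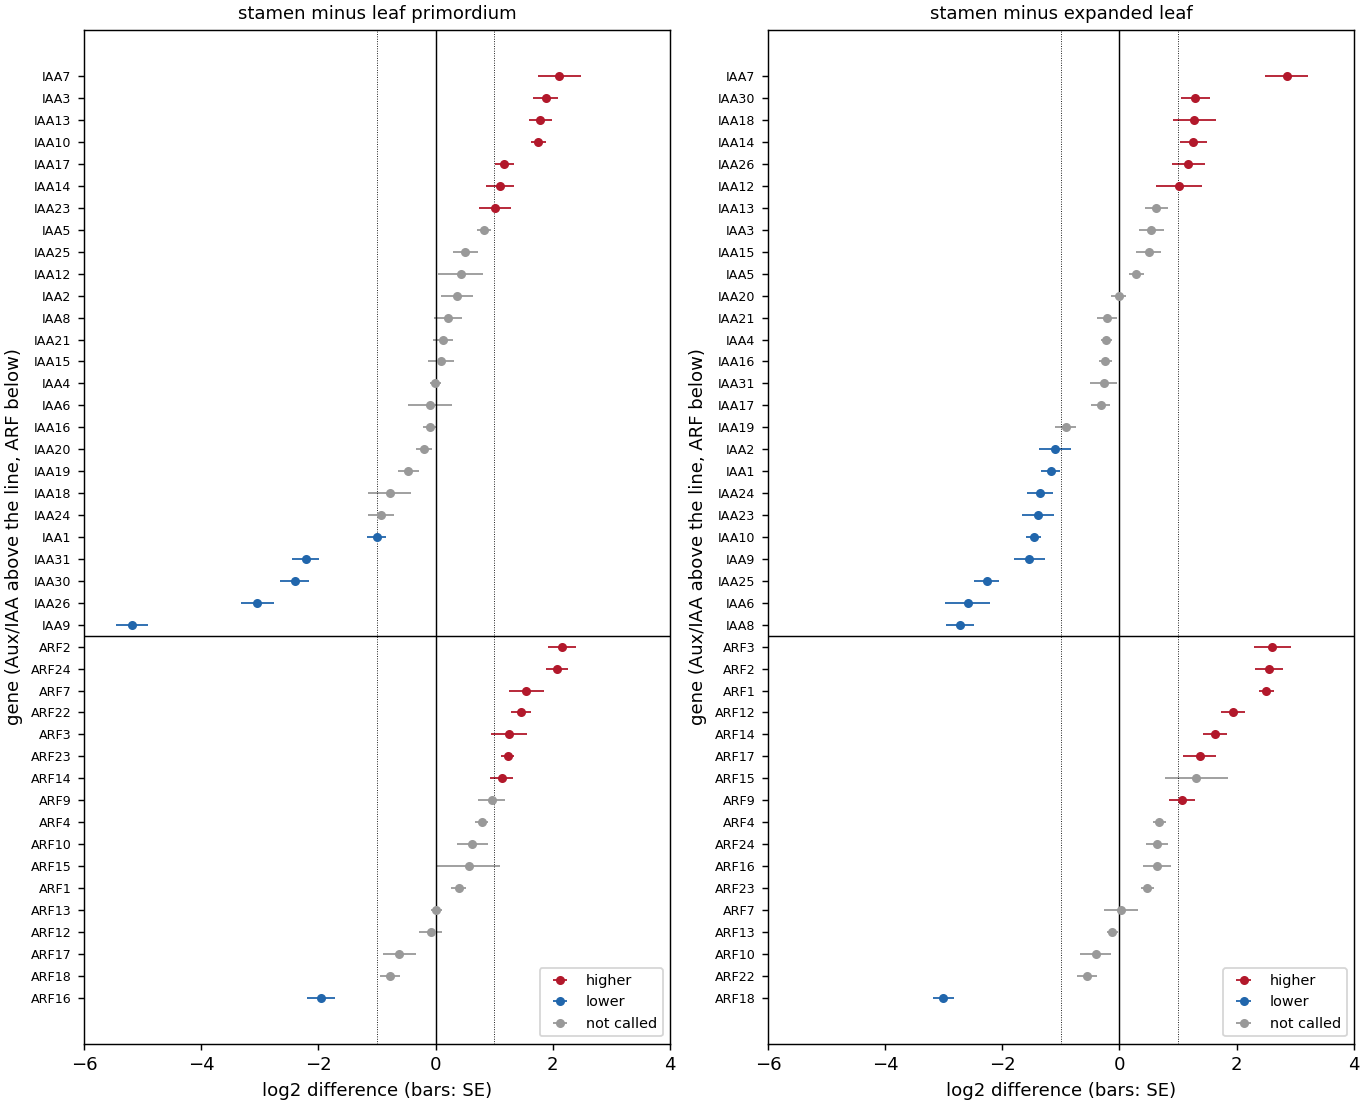
Log2 difference of each member between stamens (mean of 5 stages, 15 arrays) and leaf primordium (left) or expanded leaf (right, 3 arrays each), with bars of 1 SE; dotted lines mark 2-fold. Genes are ranked within each family, Aux/IAA above and ARF below the line. IAA9 lies at -5.18 on the left, and most ARF points lie right of 0 in both panels.

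Against expanded leaf, more Aux/IAA genes were lower in stamens than higher. Of the 26, 6 were higher (23.1%), 9 were lower (34.6%) and 11 were not called. Among all genes with 1 probe set each, 26% were higher and 19.5% lower (13.3% and 9.97% of all probe sets), so the members' share was near that of all genes for rises and above it for falls. The members' median was -0.24, and that of all genes was 0.10.

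IAA8 was dim everywhere but in expanded leaf. It lay at 3.71 to 4.52 (median 4.21) in stamens, against 8.02, 6.32 and 6.30 in expanded leaf, a difference of -2.73 (SE 0.24, adjusted p = 2.68e-08). Its second probe set was dim and gave -0.02, which was not called. IAA6, which has been linked to drought tolerance and tillering in rice, lay at 6.97 to 8.69 in stamens (median 8.12) and at 10.41, 12.08 and 9.30 in expanded leaf. The groups were apart, and the difference was -2.59 (SE 0.38, adjusted p = 1.9e-05). IAA25 (-2.26, adjusted p = 8.47e-08), IAA9 (-1.54, adjusted p = 0.000125) and IAA10 (-1.46, adjusted p = 2.95e-08) completed the 5 largest falls. Of these, IAA9 overlapped between the groups. The calls of IAA2, IAA23 and IAA24, with differences of -1.10, -1.39 and -1.35, were lost without expanded leaf replicate 1. Of the other IAA23 probe sets, 1 was called lower (-2.60) and 1 was not called (-0.05).

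IAA7 led the genes higher in stamens here too, with 6.55, 4.51 and 7.02 in expanded leaf and a difference of 2.85 (SE 0.37, adjusted p = 4.32e-06). IAA30 was higher by 1.29 (adjusted p = 0.000327), with 5.73, 5.91 and 5.50 in expanded leaf, all below the lowest stamen array. IAA14 (1.26) and IAA26 (1.18) were higher as well, with overlap. IAA18 (1.28, adjusted p = 0.00779) and IAA12 (1.02, adjusted p = 0.0386) were also called. IAA18 was lost without expanded leaf replicate 1 or replicate 3 (0.92 without replicate 3), and IAA12 without any 1 of 10 arrays and under 3 other settings. Without replicate 3, the array that stood apart, 4 Aux/IAA genes were higher and 9 lower.

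Set side by side, 4 of the 26 genes were called on the same side of both leaf samples and 4 on opposite sides. Such joint calls were not counted over all genes, so these counts only describe the members. By the mean of the 5 stages, IAA7 and IAA14 were above both leaf samples and IAA1 and IAA9 below both. At stage 2 the mean of IAA9 (7.46) was not below that of expanded leaf (7.24). IAA10 and IAA23 were above leaf primordium and below expanded leaf, while IAA26 and IAA30 were below leaf primordium and above expanded leaf. For IAA26 the latter held mainly early. Its mean was 7.82 at stage 2 but 5.31 at stage 6, where its arrays overlapped with expanded leaf (mean 5.06). IAA4, IAA5, IAA16, IAA19 and IAA21 were called in none of the 8 comparisons or the test over stages.

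Between the leaf samples, 9 Aux/IAA genes were higher in expanded leaf than in leaf primordium (34.6%), 5 were lower (19.2%) and 12 were not called, where 19.4% of all genes were higher and 24.4% lower (9.84% and 12.8% of all probe sets). IAA10 lay at 11.52, 11.77 and 11.29 in expanded leaf, against 8.42, 8.37 and 8.15 in leaf primordium. That difference was 3.21 (SE 0.16, adjusted p = 4.44e-11), with the stamen arrays between the 2 leaf groups. IAA8 (2.94), IAA25 (2.77), IAA6 (2.50) and IAA23 (2.40) were also higher in expanded leaf, with adjusted p from 2.63e-07 to 0.000522. IAA26 read 5.24, 4.99 and 4.96 in expanded leaf and was lower there by 4.22 (SE 0.36, adjusted p = 3.55e-08). IAA30 (-3.70), IAA9 (-3.64), IAA18 (-2.06) and IAA31 (-1.95) were lower too. All 14 were apart between the 2 groups of 3 arrays, but so was IAA5, which was not called (0.54). The share of all genes apart in this way was not counted, so this only describes the members. Other probe sets of IAA8 (0.03), IAA31 (0.08), IAA3 (0.50) and IAA23 (0.01) were not called. Without expanded leaf replicate 3, 9 were higher and 6 lower. With only those 6 arrays in the fit, 9 genes were called (5 higher, 4 lower).

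**Figure D3:**
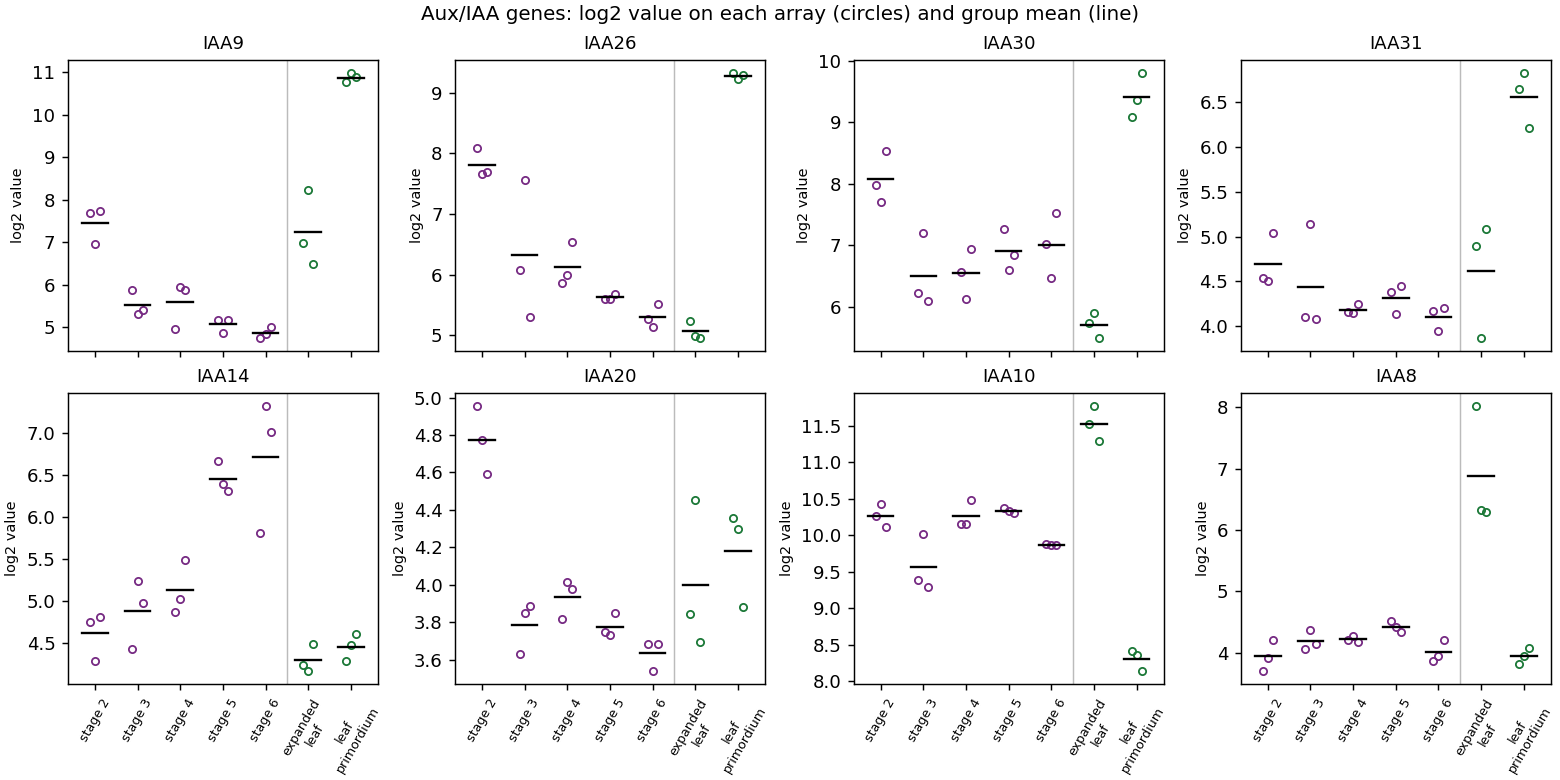
Log2 level of 8 Aux/IAA genes on every array (circles) with group means (lines), stamen stages in purple and leaf samples in green. IAA9, IAA26, IAA30 and IAA20 are highest among the stamen stages at stage 2, IAA14 is highest at stages 5 and 6, and IAA10 and IAA8 are highest in expanded leaf.

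Across the stamen stages, most Aux/IAA genes were not called, and 5 of the 6 that were called between stages 6 and 2 were lower at stage 6. Without regard to the test, the stage 6 mean was below the stage 2 mean in 18 of the 26 (69.2%), and in 48.1% of all genes. Only 1 gene was called higher at stage 6 (3.85%) and 5 were called lower (19.2%), while 5.67% of all genes were higher and 6.08% lower (4.4% and 3.47% of all probe sets). The median difference of the members was -0.31, and that of all genes was 0.02. In the F test over the 5 stages, 5 Aux/IAA genes changed (19.2%), namely IAA9, IAA26, IAA14, IAA30 and IAA20, where 10.7% of all genes did (7.23% of all probe sets).

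IAA9 had stage means of 7.46 ± 0.44, 5.52 ± 0.30, 5.59 ± 0.56, 5.07 ± 0.18 and 4.87 ± 0.13 from stage 2 to stage 6 (SD, n = 3 each). It was lower at stage 6 than at stage 2 by 2.59 on average (SE 0.35, adjusted p = 9.01e-05), without overlap, and most of the change lay between stages 2 and 3. IAA26 had 5.27, 5.14 and 5.51 at stage 6 and 8.09, 7.65 and 7.70 at stage 2, a difference of -2.51 (SE 0.36, adjusted p = 0.000161), and its mean declined at each of the 4 steps. IAA15, whose mean also declined at each step, read 10.46, 10.06 and 10.30 at stage 6 and 11.49, 11.44 and 11.47 at stage 2 (difference -1.19, SE 0.28, adjusted p = 0.00754). IAA20 was lower at stage 6 by 1.14 (adjusted p = 0.000194) at dim levels, 3.68, 3.54 and 3.68 against 4.95, 4.77 and 4.59 at stage 2. IAA30 was lower by 1.07 (adjusted p = 0.0305), a call lost without any 1 of 4 arrays of those stages.

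IAA14 went the other way. It lay at 5.804, 7.31 and 7.01 at stage 6, against 4.75, 4.29 and 4.80 at stage 2, where it was close to both leaf samples. The difference was 2.09 (SE 0.30, adjusted p = 0.000157), and its mean was higher at each successive stage, at 4.61 ± 0.28, 4.88 ± 0.41, 5.12 ± 0.32, 6.45 ± 0.19 and 6.71 ± 0.80 (SD, n = 3 each). IAA6 had a difference of 1.35 that was not called (adjusted p = 0.0757). With only stages 6 and 2 in the fit, IAA6 was called higher (adjusted p = 0.000456). In that fit IAA2 (-1.03, adjusted p = 0.0359) and IAA18 (-1.09, adjusted p = 0.00753) were called lower. With array weights these genes were called as well, while IAA30 was not (-0.97).

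Among consecutive stages, members were called only between stages 3 and 2, and all were Aux/IAA genes lower at stage 3. IAA9 was lower by 1.94 (adjusted p = 0.00629), IAA30 by 1.57 (adjusted p = 0.0144) and IAA26 was also called (adjusted p = 0.0331), with means of 6.32 at stage 3 and 7.82 at stage 2. That is 3 of the 43 members, made up of 3 of 26 Aux/IAA (11.5%) and 0 of 17 ARF genes. Among all genes 0.972% were lower and 0.793% higher (0.721% and 0.824% of all probe sets). The IAA26 values at stage 3 were widely spread, at 6.08, 7.57 and 5.30, and that call was lost without any 1 of 5 arrays of stages 2 and 3. The IAA30 call was lost without stage 2 replicate 3 or stage 3 replicate 3 and with only the groups compared. From stage 3 to 4, 4 to 5 and 5 to 6, limma called 0 of the 43 members, with 4, 2 and 5 members at an unadjusted p below 0.05. Few genes were called there at all. Between stages 4 and 3, 0.0168% of all genes were higher and 0.00559% lower (0.00524% and 0.00175% of all probe sets). Between stages 5 and 4 the shares were 0.067% and 0.0112% (0.0367% and 0.00699%), and between stages 6 and 5 they were 0.

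The 3' to 5' difference was 1.27 to 1.94 at stage 6 and 3.19 to 3.41 at stage 2, and the summed desiccation marker level was 10.34 to 11.89 at stage 6 and 13.60 to 13.70 at stage 2. With that difference added to the model as a covariate, IAA9 (-3.12, adjusted p = 0.00256), IAA15 (-1.69, adjusted p = 0.025), IAA20 (-1.34, adjusted p = 0.00592) and IAA14 (2.00, adjusted p = 0.0203) were still called between stages 6 and 2. IAA26 (-1.81, adjusted p = 0.0519) and IAA30 (-0.80, adjusted p = 0.404) were not. Between stages 3 and 2, IAA9 was called with the covariate (-2.30, adjusted p = 0.0301), but IAA26 and IAA30 were not (adjusted p = 0.37 and 0.189). The IAA6 difference was -0.09 with the covariate. The model holds the group means, so the covariate slope came from spread within groups, over stamen and leaf arrays alike. That spread was widest in expanded leaf (1.73 to 3.37), where IAA6 read 10.41, 12.08 and 9.30, followed by stage 3 (1.45 to 2.69). Values with the covariate, here and below, therefore depend on leaf arrays too. How far RNA integrity accounts for the stage differences was not tested. The part of the desiccation marker level in these differences was not tested either.

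**Figure D4:**
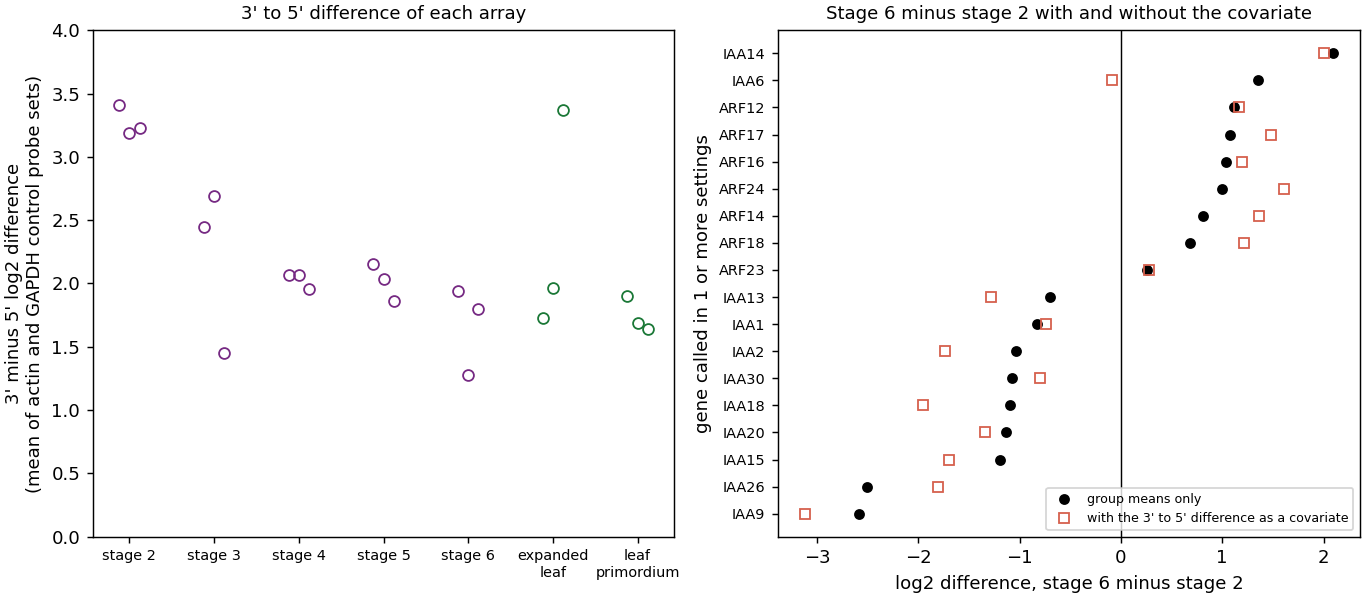
Left, 3' to 5' difference of each array by group (stamens purple, leaf samples green). Right, log2 difference between stage 6 and stage 2 of the members called in at least 1 setting, from group means only (black) and with the 3' to 5' covariate (open squares). Stage 2 arrays lie at 3.19 to 3.41 on the left, and on the right IAA6 shifts to -0.09 while IAA9 and IAA14 keep their side.

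Most ARF genes that the test called were higher in stamens. Against leaf primordium the test called 7 of the 17 higher (41.2%) and 1 lower (5.88%), with no call for 9, beside the 15.1% and 12.2% of all genes given above. The members' median difference was 0.79, and 13 of 17 differences were positive. Against expanded leaf the counts were again 7, 1 and 9, beside 26% and 19.5% of all genes, with a median of 0.68.

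ARF2, annotated as OsETTIN2, was higher than both leaf samples (gene 4325895). ETTIN-type factors are known for patterning floral organs in Arabidopsis. It lay at 9.57 to 10.53 (median 9.94) in stamens, against 6.62, 7.82 and 7.84 in expanded leaf and 7.41, 7.91 and 8.16 in leaf primordium. No stamen array overlapped with a leaf array, and the differences were 2.55 (SE 0.24, adjusted p = 6.57e-08) to expanded leaf and 2.15 (SE 0.24, adjusted p = 1.21e-06) to leaf primordium. Its second probe set gave 2.63 and 1.88, both called. ARF2 was flat across the stages, with means between 9.78 and 10.16.

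ARF3 and ARF14 were above both leaf samples as well. ARF3 lay at 9.40 to 10.84 (median 10.11) in stamens, against 8.55, 6.72 and 7.44 in expanded leaf and 8.09, 8.88 and 9.79 in leaf primordium. It was higher by 2.61 than expanded leaf (adjusted p = 1.56e-06) and by 1.26 than leaf primordium (adjusted p = 0.00423). ARF14 lay at 7.27 to 8.86 (median 8.33) in stamens, against 6.31, 6.65 and 6.92 in expanded leaf and 6.85, 7.33 and 7.18 in leaf primordium. Its differences were 1.63 (adjusted p = 1.99e-06) and 1.13 (adjusted p = 0.000208). Both genes overlapped between stamens and leaf primordium, and both calls against it were lost without leaf primordium replicate 1 (0.84 and 0.997). The ARF14 call was also lost with the 3' to 5' difference in the model. No ARF gene was called below both leaf samples, and such joint calls were not counted over all genes.

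ARF24, ARF7, ARF22 and ARF23 were called higher against leaf primordium and not against expanded leaf. ARF24, which in rice forms a complex with ARF23 that controls an actin-organising formin, lay at 10.13 to 11.36 in stamens (median 10.40) and at 8.34, 8.81 and 8.47 in leaf primordium. Its difference was 2.07 (SE 0.19, adjusted p = 1.21e-07), and ARF23 was higher by 1.23 (SE 0.11, adjusted p = 9.01e-08). ARF7 was higher by 1.55 (adjusted p = 0.000401) and ARF22 by 1.46 (adjusted p = 3.18e-06). All 4 were apart from leaf primordium on every array, as were ARF4 (0.79) and ARF9 (0.96), which were not called. Against expanded leaf the differences of the 4 called genes, from -0.56 to 0.65, did not reach 2-fold. The dimmer probe set of ARF23 was called there (1.15, adjusted p = 0.0054). ARF16, an activator that acts in phosphate responses in rice, was the only ARF gene lower than in leaf primordium. It read 7.42 to 8.99 in stamens (median 7.68), against 9.49, 9.74 and 10.38 there, without overlap (-1.95, SE 0.24, adjusted p = 5.11e-06).

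Against expanded leaf the largest rises after ARF3 and ARF2 were in ARF1 and ARF12. ARF1 lay at 9.03 to 10.18 in stamens (median 9.57), against 6.96, 7.34 and 6.92 in expanded leaf, a difference of 2.50 (SE 0.13, adjusted p = 1.93e-11). ARF12, an activator needed for root elongation in rice, lay at 9.19 to 11.04 in stamens (median 10.23) and at 8.58, 7.82 and 8.62 in expanded leaf (1.93, SE 0.20, adjusted p = 2.92e-07). Neither overlapped. ARF4 was called with its second probe set (1.08, adjusted p = 0.00124) and not with the one used here (0.68). ARF17 (1.37, adjusted p = 0.000622) and ARF9 (1.07, adjusted p = 0.000874) were also higher, but the ARF17 call was lost without expanded leaf replicate 1 and the ARF9 call without replicate 2. Without replicate 3, 8 ARF genes were higher and 1 lower. ARF18 was the only ARF gene lower than in expanded leaf, at 5.24 to 7.28 in stamens (median 6.05) and 9.00, 8.84 and 9.34 in expanded leaf. The groups were apart, by -3.005 (SE 0.18, adjusted p = 1.23e-10).

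Between the leaf samples, 5 ARF genes were higher in expanded leaf and 5 were lower (29.4% each), beside 19.4% and 24.4% of all genes. ARF18 (2.23), ARF22 (2.02), ARF7 (1.52), ARF24 (1.42) and ARF10 (1.04) were higher. ARF16 (-2.59), ARF1 (-2.11), ARF12 (-2.02), ARF17 (-1.98) and ARF3 (-1.35) were lower. Without expanded leaf replicate 3, 4 were higher and 5 lower. Of all 10, ARF3 and ARF10 overlapped between the groups. The ARF10 call was lost without any 1 of 4 leaf arrays and stood at 0.50 without expanded leaf replicate 3, and that of ARF3 was lost without expanded leaf replicate 2 or leaf primordium replicate 3.

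**Figure D5:**
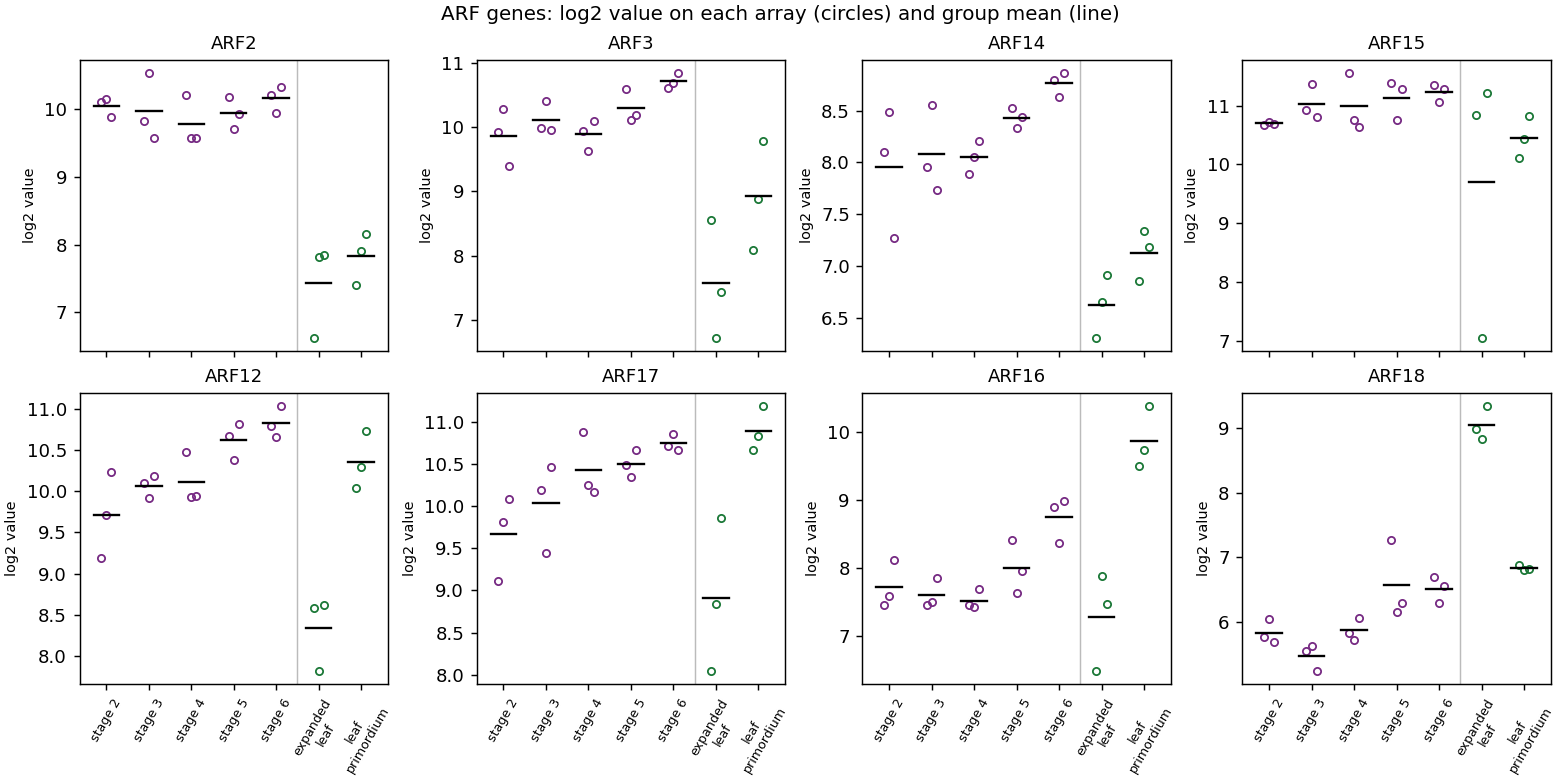
Log2 level of 8 ARF genes on every array (circles) with group means (lines), stamen stages in purple and leaf samples in green. ARF2, ARF3 and ARF14 lie higher in stamens than in expanded leaf on every array, ARF15 has 1 expanded leaf array at 7.05, ARF12 and ARF17 climb over the stages, and ARF18 is highest in expanded leaf.

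Over the stamen stages, 14 of the 17 ARF genes were not called between stages 6 and 2. Without regard to the test, the stage 6 mean was above the stage 2 mean in 14 of 17 (82.4%), and in 51.9% of all genes. In the test, 3 ARF genes were higher at stage 6 (17.6%) and 0 were lower, beside 5.67% and 6.08% of all genes, and the median difference was 0.54. Markers of dividing cells moved in the same direction, with a summed level of 13.70 to 13.87 at stage 6 and 12.44 to 13.05 at stage 2 and 2 of 4 called higher, and their part in the ARF results was not tested. The largest difference was 1.12, and limma gave 8 of the 17 an unadjusted p below 0.05. In the F test 3 genes changed (17.6%, beside 10.7% of all genes), ARF12, ARF18 and ARF24.

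ARF12 read 10.80, 10.67 and 11.04 at stage 6, against 9.19, 9.71 and 10.23 at stage 2, a difference of 1.12 (SE 0.26, adjusted p = 0.0064). Its mean was higher at every successive stage, as was that of ARF17, whose difference of 1.08 was not called (adjusted p = 0.055). ARF16 lay at 8.90, 8.37 and 8.99 at stage 6, against 7.45, 7.59 and 8.12 at stage 2 (1.04, SE 0.31, adjusted p = 0.0314). ARF24 had 11.36, 11.13 and 11.36 at stage 6 and 10.16, 10.36 and 10.33 at stage 2 (1.00, SE 0.24, adjusted p = 0.00893). The stages did not overlap in any of these 3 called genes, nor in several that were not called, such as ARF13 (0.22). ARF18 differed most between stages 5 and 3, with means of 6.57 ± 0.61 and 5.47 ± 0.20 (SD, n = 3 each; F test adjusted p = 0.00945).

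These calls lay close to the threshold. Without stage 2 replicate 1, 0 ARF genes were called between stages 6 and 2, and with all arrays but no fold threshold 5 were. With the 3' to 5' covariate, ARF24 (1.61, adjusted p = 0.00902) was called together with ARF14 (1.36, adjusted p = 0.0359) and ARF18 (1.21, adjusted p = 0.0313), while ARF12 (1.16, adjusted p = 0.112) and ARF16 (1.20, adjusted p = 0.177) were not. ARF23 depended on its probe set. The brighter one, designed against several transcripts of the gene, gave 0.26 (adjusted p = 0.275), and the dimmer one, which may cross-hybridise, gave 1.86 (adjusted p = 0.00398).

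Several ARF genes are known targets of small RNAs in rice. The 4 targets of TAS3 trans-acting small RNAs are ARF2, ARF3, ARF14 and ARF15, and 3 of the 4 were higher in stamens than in each leaf sample, beside 15.1% of all genes against leaf primordium and 26% against expanded leaf. Against leaf primordium, ARF2 alone of these kept its call without leaf primordium replicate 1. ARF15, annotated as OsETTIN1, was not called in either comparison (0.56 and 1.31), and its expanded leaf values of 10.84, 7.05 and 11.22 differed more from each other than from the stamens (10.64 to 11.55). The low value of 7.05 is from expanded leaf replicate 2. Without that array the difference was -0.01 (adjusted p = 0.973), and without replicate 1 or replicate 3, which leaves the low array in, it was 1.88 (adjusted p = 0.0177) or 2.07 (adjusted p = 0.00481).

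Of the miR167 targets ARF12 and ARF17 were measured. Both were higher in stamens than in expanded leaf (1.93 and 1.37), both were lower in expanded leaf than in leaf primordium (-2.02 and -1.98), and neither was called between stamens and leaf primordium (-0.09 and -0.62). Of the miR160 targets ARF10, ARF18 and ARF22 were measured, and all 3 were higher in expanded leaf than in leaf primordium. Against leaf primordium, stamens had more ARF22 (1.46), while ARF18 (-0.78) and ARF10 (0.63) did not reach a call. The small RNAs themselves were not analysed here.

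Further genes of the pathway came from a list of corepressors, synthesis, transport, response and turnover genes, 22 of which had a probe set. No receptor gene was found by symbol. Of the 22, 4 were higher and 4 lower in stamens than in leaf primordium, and 6 were higher and 5 lower than in expanded leaf. Among all genes the shares were 15.1% higher and 12.2% lower against leaf primordium, and 26% higher and 19.5% lower against expanded leaf. Between the leaf samples 4 were higher and 3 lower in expanded leaf, beside 19.4% and 24.4% of all genes. From stage 2 to stage 6, 2 were higher and 4 lower at stage 6, beside 5.67% and 6.08%.

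Genes on the corepressor list split. ASP1 was found by the names ASP1 and OsAsp1 alone. Whether this gene is the TOPLESS-type corepressor of that name was not checked. The split of the list and the pathway counts above therefore include a gene whose identity is uncertain. ASP1 lay at 5.06 to 6.20 in stamens (median 5.45), against 4.04, 4.02 and 3.60 in expanded leaf and 4.07, 3.27 and 4.35 in leaf primordium. It was higher by 1.58 (adjusted p = 2.08e-06) and 1.57 (adjusted p = 4.47e-06) and overlapped with neither. That probe set is dim, is of a kind shared between transcripts of related genes, and both calls were lost when the 2 probe sets of ASP1 were averaged. TPR2 lay at 7.96 to 10.02 in stamens (median 9.15), against 10.24, 11.02 and 10.02 in expanded leaf and 10.09, 10.46 and 11.08 in leaf primordium. It was lower by 1.32 (adjusted p = 0.000438) and 1.44 (adjusted p = 0.000321). The TPR2 probe set is also of the kind shared between transcripts of related genes. TPR3 did not reach 2-fold in either comparison (0.69 and 0.29). The auxin synthesis genes FIB and YUCCA1 were not called in any comparison.

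PID, which encodes the kinase that sets the polarity of PIN auxin transporters, had the largest difference of the list. It lay at 8.08 to 11.22 in stamens (median 9.75), against 6.39, 4.23 and 3.83 in expanded leaf and 6.20, 5.84 and 5.62 in leaf primordium. The differences were 5.03 (SE 0.43, adjusted p = 2.34e-08) and 3.96 (SE 0.43, adjusted p = 1.09e-06), without overlap. Within stamens it was lower at stage 6, with 8.96, 8.08 and 8.67, than at stage 2, with 10.79, 11.03 and 11.22 (-2.44, adjusted p = 0.00563, and adjusted p = 0.107 with the 3' to 5' covariate). PIN6 was lower in stamens than in expanded leaf by 4.05 (adjusted p = 3.29e-07), at 3.84 to 4.77 against 9.15, 6.18 and 9.54.

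Among the response genes, GH3 genes changed in both directions over the stages. The GH3 family includes enzymes that join auxin to amino acids, but the substrate of each member was not examined here. GH3.4 read 5.27, 5.76 and 6.24 at stage 6, against 9.12, 8.95 and 8.68 at stage 2 (-3.16, SE 0.47, adjusted p = 0.000232). GH3.5 read 8.15, 8.30 and 8.09 at stage 6, against 5.80, 5.98 and 5.62 at stage 2 (2.38, SE 0.23, adjusted p = 5.16e-06). Both kept their call with the covariate (-2.84 and 1.58). GH3.6 (-1.97) and DAO (-1.18), an auxin oxidase gene needed for anther opening in rice, were lower at stage 6 and lost their calls with it. SAUR39, a repressor of auxin synthesis and transport in rice, was lower in stamens than in expanded leaf (-2.96, adjusted p = 1.63e-09) and leaf primordium (-1.84, adjusted p = 1.71e-06). GH3.8 was higher in stamens than in expanded leaf (3.52, adjusted p = 4.63e-05), with a stamen median of 9.68 (lowest 8.66) and values of 4.92, 4.75 and 8.93 in expanded leaf, where the highest value is from the array that stood apart.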

How the data were processed

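The deposited values are log2 signals that the authors computed with RMA, per the submitters' processing notes, in a version not given in the sources used here. The table held 57381 probe sets, of which 123 controls were left out and 57258 tested. GEO's platform annotation, with symbols updated from RefSeq's ASM3414082v1, named a single gene for 22436 of them, while 95 had several genes and 34727 had none. Arrays have no read depth, and their number, 3 per group, limits the precision. Array medians lay at 5.82 to 5.88, and 0 arrays were duplicates. Arrays of 1 group correlated at 0.984 to 0.995 in stamens, 0.981 to 0.995 in leaf primordium and 0.931 to 0.949 in expanded leaf. Some arrays of stages 3 to 6 were closest to an array of another stage. Whether replicates came from separate plants is stated only as biological replicates, and p-values measure the spread between these arrays.

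From these values, 1 model of 7 group means was fitted to all arrays and all probe sets with limma 3.58.1 in R 4.3.3 (lmFit, eBayes), with 8 two-sided contrasts and an F test over the stages. Adjustment (Benjamini-Hochberg) was over all probe sets. A call needed an adjusted p below 0.05 and 2-fold. The model was tested on simulated data.

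Members and gene lists were chosen with earlier results of these data known. Named genes are the called members with up to 5 of the largest rises and falls per broad comparison and family, up to 6 in the F test, all calls between consecutive stages, members whose probe sets disagree, small RNA target groups and up to 4 called pathway genes per comparison. Others are named after their values were seen. Alternatives were quantile normalization, median centring, a filter on dim probe sets, a trended robust prior, array weights, a replicate block, only the groups compared, other thresholds, averaging a gene's probe sets, the 3' to 5' covariate, and leaving out each array. Sequence motifs and protein degrons were not used here. Suffixes of probe set names (_s_at, _x_at, _a_at) mark sets that may detect several genes, cross-hybridise or cover several transcripts.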

Additional observations from a re-analysis of the deposited data

How the results depend on the processing

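Of 294 counts of called members without 1 array, 14 moved by over 1.5 times, as did 15 of 154 counts under other settings, and no called gene changed direction. The cause of these shifts was not tested, except that thresholds and fewer arrays act by construction. Between stages 6 and 2, the ARF count of 3 became 1 with quantile normalization and 5 without a fold threshold. Between stages 3 and 2, the count of 3 became 5 with array weights, 1 with only the groups compared, 5 without a fold threshold and 1 at an adjusted p below 0.01. Between stages 5 and 4, the count of 0 became 1 with array weights. In the F test the Aux/IAA count of 5 became 10 with array weights, 8 with only the groups compared and 3 with the 3' to 5' covariate, and the ARF count of 3 became 5 with array weights, 5 without a fold threshold and 1 at an adjusted p below 0.01. The Aux/IAA count of 14 between the leaf samples became 9 with only the groups compared, and the ARF count of 8 against expanded leaf became 13 without a fold threshold.

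Leaving out 1 array at a time gave, against leaf primordium, 10 to 12 Aux/IAA and 6 to 9 ARF genes, and against expanded leaf 11 to 15 and 7 to 9. Between the leaf samples it gave 13 to 15 and 9 to 10. Between stages 6 and 2 it gave 5 to 9 Aux/IAA genes (9 without expanded leaf replicate 2) and 0 to 4 ARF genes (0 without stage 2 replicate 1). The F test gave 4 to 8 Aux/IAA (8 without expanded leaf replicate 2) and 1 to 4 ARF genes. Between stages 3 and 2 it gave 2 to 4 and between stages 5 and 4 it gave 0 to 1 (1 without stage 6 replicate 1). The other consecutive stages stayed at 0.

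Replicate numbers are shared between groups. Over 63 same-numbered pairs, deviations from the group means correlated at -0.43 to 0.48 (median 0.02), with 17 above 0.1. Some groups were positive at all 3 numbers, as leaf primordium with stage 2 (0.22, 0.15 and 0.28). Others were negative, as stage 4 with stage 6 (-0.32, -0.12 and -0.22). Whether some groups share a batch was not tested. With the replicate number as a block, the counts were 12 Aux/IAA and 8 ARF genes against leaf primordium, 14 and 9 against expanded leaf, 14 and 10 between the leaf samples, 6 and 4 between stages 6 and 2, 6 and 4 in the F test, and 3 between stages 3 and 2. Dim members and the spread of the expanded leaf arrays limit what can be seen.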
